A study of Homo sapiens with 8 samples.

Results

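Axon guidance genes of the ephrin, Slit, netrin and RGM systems were followed in D283-OMO cells, a line made from the medulloblastoma line D283 Med by lentiviral transduction with a doxycycline (DOX)-inducible, Flag-tagged OMOMYC transgene. Members were the protein-coding genes of GENCODE 29 whose symbol belongs to an Eph receptor, an ephrin, a Slit, a Robo receptor, a netrin or netrin-G, DCC, NEO1, an UNC5 receptor, RGMA, RGMB or DRAXIN. The rule used names only, and it found 44 members among the 60668 genes in the count files. The OMO group holds 4 libraries of untreated D283-OMO cells, and the OMO+DOX group holds 4 libraries of the same cells after 72 h of OMOMYC induction by DOX. All 8 libraries carry the transgene, and the study's methods describe cells selected with hygromycin B without naming a clone. No DOX-treated library of cells lacking the transgene was analysed here, so effects of OMOMYC and of DOX itself cannot be told apart.

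Guidance cues steer growing axons and migrating cells by attraction or repulsion. Eph receptors are receptor tyrosine kinases that bind membrane-bound ephrins on neighbouring cells, with signalling in both cells; EphA receptors mostly bind the lipid-anchored ephrin-A proteins and EphB receptors mostly bind the transmembrane ephrin-B proteins. Secreted Slit proteins repel cells through Robo receptors, while netrins attract through DCC and neogenin (NEO1) and repel through UNC5 receptors, and RGM proteins signal through neogenin. In the developing cerebellum these systems help to position granule cell precursors and their axons. OMOMYC is a MYC-derived mini-protein that interferes with MYC and its partner MAX, which together bind E-box sequences.

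Total expected counts ranged from 38390696 to 54020506 per library, and the members took between 0.108% and 0.124% of them. Levels are given in CPM, the counts of a gene scaled to its library's size with TMM factors from edgeR, and 3 counts, taken as the detection floor, correspond to between 0.0581 and 0.0748 CPM. Floors cover counting error only. The log2 values of libraries correlated across genes with r of at least 0.9925 within a group and at most 0.916 between groups. OMO replicate 3 stood apart from the other OMO libraries for ROBO1 and UNC5C, and OMO+DOX replicate 2 for EPHB3 and SLIT3, and those results are given with and without these libraries. MYC stood at 939 ± 75.6 CPM in OMO and 1123 ± 56.8 CPM in OMO+DOX (SD, n = 4 each), and reads of the MYC-derived transgene cannot be told apart from it in counts per gene. Of the MYC targets, CAD fell by 0.48 on the log2 scale (edgeR adjusted p = 1.33e-06) and NCL fell by 0.44 (edgeR adjusted p = 1.23e-06). Group 3 medulloblastoma markers such as OTX2, CRX and NRL were present, and 6 of the 7 that were tested were lower in OMO+DOX. Their summed levels, which include MYC and so any transgene reads, were 3248 to 3315 CPM in OMO and 1762 to 1903 CPM in OMO+DOX. Of 6 neuronal markers tested, 4 were higher and 1 was lower in OMO+DOX, with summed levels of 233 to 258 CPM in OMO and 575 to 595 CPM in OMO+DOX. At the same edgeR adjusted p below 0.05, 38.5% of all 15222 genes tested were higher and 38.1% lower. Most of the summed neuronal level came from NEFL, with means of 44.4 and 285 CPM, and SYT1, with 192 and 272 CPM. SNAP25 fell from 9.82 to 6.45 CPM, and RBFOX3 stood at 1.12 CPM in OMO and 1.10 CPM in OMO+DOX. The glial marker MOG had no count in any library. Of the other marker lists, 2 of 6 mesenchymal, 3 of 6 endothelial and 1 of 6 immune markers passed the filter on low levels. The endothelial markers CDH5 and KDR and the immune marker LYZ passed it through the OMO+DOX libraries alone, so they had to differ. Summed mesenchymal markers were at 35.1 to 37.6 CPM and 55.7 to 69.1 CPM, summed endothelial markers at 3.60 to 4.47 CPM and 5.53 to 6.39 CPM, and summed immune markers at 0.721 to 0.888 CPM and 2.44 to 3.13 CPM, in OMO and OMO+DOX respectively. The part of these shifts in the guidance genes was not tested. In bulk RNA, more cells of a type and more RNA per cell cannot be told apart.

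Across the guidance genes, EphA receptors, SLIT2 and UNC5D were higher after DOX, and SLIT1, EFNB1 and UNC5B were lower. The 37 members that exceeded 1 CPM (here without TMM scaling) in 4 or more libraries were tested together with all such genes. At an adjusted p below 0.05 (quasi-likelihood F test of edgeR, Benjamini-Hochberg method across the whole table), 21 members were higher and 10 lower in OMO+DOX, or 83.8% of the members tested, where the background over all 15222 genes tested was 76.6%, with 38.5% higher and 38.1% lower. With an absolute log2FC above 1 as well, 12 members were higher and 5 lower, or 45.9%, against a background of 20.9%, with 11.0% higher and 9.81% lower. The study states its threshold for differential expression with an FDR of 0.001 in one place and of 0.01 in others, each together with a log2FC beyond 2 in either direction. At 0.001 there were 7 upregulated members and 1 downregulated member, or 21.6%, against a background of 7.12%, with 4.38% upregulated and 2.75% downregulated. At 0.01 the counts of members were also 7 and 1, and the background was taken at 0.001 only. EPHA3, EPHA5, EPHA6, UNC5D and EFNA5 passed the filter through the OMO+DOX libraries alone and so had to differ, and the shares above lean on them. The 4 OMO and 4 OMO+DOX libraries did not overlap for 26 of the 37 members (70.3%), close to the background of 71.7%. The median absolute log2FC was 0.78 over the members tested and 0.43 over all genes tested, and the median log2FC was 0.30 over the members and 0.01 over all genes. The count without overlap and the medians of the members also include EPHA3, EPHA5, EPHA6, UNC5D and EFNA5.

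**Figure D1:**
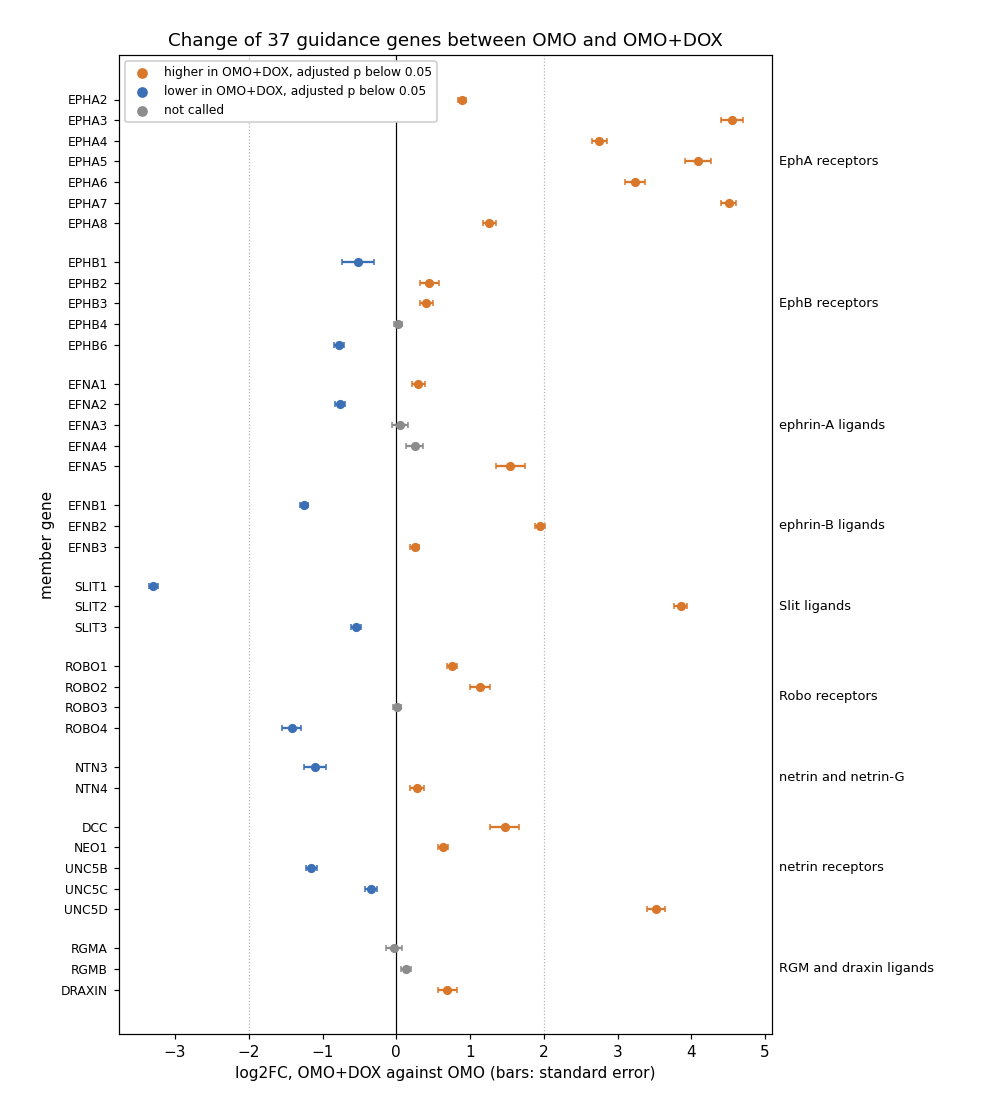
The log2FC of OMO+DOX against OMO (x axis, positive when higher in OMO+DOX) of the 37 members tested (y axis, by family), with bars for the standard error and dotted lines at -2 and 2. EphA receptors lie on the right, up to 4.55 for EPHA3, and SLIT1 lies farthest left at -3.29.

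EPHA2, EPHA3, EPHA4, EPHA5, EPHA6, EPHA7 and EPHA8 all rose with DOX, and the other EphA receptors, EPHA1 and EPHA10, did not pass the filter. EPHA7, a receptor with roles in cortical and retinal mapping, lies on the minus strand of chromosome 6 of GRCh38 (93240020 to 93419547). It stood at 2.96, 3.93, 2.95 and 2.53 CPM in OMO and at 71.1, 74.3, 70.4 and 66.6 CPM in OMO+DOX. The groups lay far apart, with a log2FC of 4.51 (standard error 0.10, 22.7-fold, edgeR adjusted p = 6.16e-12). EPHA3 (chromosome 3, 89107524 to 89482134, plus strand) was nearly silent in untreated cells, from 9 to 14 counts per library. It measured 0.245, 0.174, 0.183 and 0.314 CPM in OMO and 5.56, 5.43, 5.20 and 5.22 CPM in OMO+DOX, a log2FC of 4.55 (standard error 0.15, edgeR adjusted p = 1.37e-10). EPHA5 (chromosome 4, 65319563 to 65670495, minus strand) measured 0.257, 0.301, 0.128 and 0.274 CPM in OMO and 3.98, 4.46, 4.32 and 3.87 CPM in OMO+DOX, a log2FC of 4.09 (standard error 0.18, edgeR adjusted p = 1.87e-09). Its expected counts included parts of reads divided among genes in all 8 libraries. The antisense gene EPHA5-AS1, which shares 5.4% of its exonic bases, stayed at or below 0.468 CPM. EPHA3 and EPHA5 passed the filter through the OMO+DOX libraries alone, so they had to differ and their adjusted p values are only descriptive.

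EPHA6 and EPHA4 rose as well, from levels close to 1 CPM. EPHA6 (chromosome 3, 96814581 to 97752460, plus strand) measured 0.898, 0.735, 0.630 and 1.009 CPM in OMO and 8.62, 7.63, 7.57 and 6.87 CPM in OMO+DOX, a log2FC of 3.23 (standard error 0.14, edgeR adjusted p = 1.31e-09). EPHA4, a receptor that binds ephrins of both classes and stops corticospinal axons from recrossing the midline, lies on chromosome 2 (221418027 to 221574202, minus strand). It measured 1.91, 1.88, 1.44 and 1.68 CPM in OMO and 12.7, 11.6, 11.7 and 10.7 CPM in OMO+DOX, a log2FC of 2.75 (standard error 0.10, edgeR adjusted p = 3.55e-10). EPHA6 passed the filter through the OMO+DOX libraries alone, so its groups had to separate and its adjusted p is only descriptive. In EPHA4 every OMO+DOX library was several-fold above every OMO library.

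EPHA2 and EPHA8 were the EphA receptors with the highest levels per length in untreated cells, and both rose by a smaller factor. EPHA2, the ephrin-A1 receptor of many epithelia and tumours, lies on chromosome 1 (16124337 to 16156087, minus strand) and measured 104, 90.7, 101 and 102 CPM in OMO and 184, 173, 185 and 194.8 CPM in OMO+DOX. Its log2FC was 0.89 (standard error 0.06, 1.85-fold, edgeR adjusted p = 3.95e-08). EPHA8, a receptor for ephrin-A ligands (chromosome 1, 22563564 to 22603594, plus strand) measured 15.8, 12.1, 14.5 and 13.7 CPM in OMO and 34.0, 29.6, 36.5 and 34.4 CPM in OMO+DOX, a log2FC of 1.26 (standard error 0.09, edgeR adjusted p = 7.61e-08). The groups did not overlap in either gene. EPHA1 stayed at or below 0.199 CPM and EPHA10 at or below 0.0660 CPM in all libraries.

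EPHA8 was the only one of the 37 members searched with the palindromic E-box CACGTG, the site that MYC and MAX favour. The promoter window ran from 250 bases before to 50 after the RefSeq start site. A single window was kept per symbol, so other start sites were not searched. Windows were matched by symbol for 37 of the 44 members (RefSeq, GRCh38.p14), so that the motif was found in 2.7% of them, against 7.4% of all 27305 promoters and 10.2% of the promoters of genes tested. The motif reads the same on both strands and was searched without any other. The site of EPHA8 is printed on the plus strand, chr1:22563328-22563357, with the E-box in capitals, because it is the single match among the members searched. The first base of the E-box lies at position -149 from the start site.
EPHA8: tgtgggcgtgcgCACGTGcggcggcggtgg
The match is a description of these letters, and windows without it may hold other sites.

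No EphB receptor had a log2FC beyond 1, and their calls went in both directions. EPHB6, an Eph receptor without kinase activity, fell from 19.7 ± 1.15 to 11.5 ± 0.756 CPM (mean ± SD over 4 libraries each), with a log2FC of -0.78 (standard error 0.06, edgeR adjusted p = 4.51e-07), and its groups did not overlap. EPHB3, which acts with EPHB2 in commissural axon paths, rose from 19.4 ± 1.02 to 25.7 ± 3.17 CPM, a log2FC of 0.41 (standard error 0.08, edgeR adjusted p = 0.000884). OMO+DOX replicate 2, at 20.9 CPM, lay just above the highest OMO library at 20.8 CPM, and without it the log2FC was 0.49. EPHB2 rose by 0.45 on the log2 scale (standard error 0.13, edgeR adjusted p = 0.00767), with overlapping groups. EPHB1 was low, between 0.631 and 1.55 CPM, and its log2FC of -0.52 (standard error 0.21) had an edgeR adjusted p of 0.0412. That call was lost when any of OMO replicates 1 and 4 or OMO+DOX replicates 1, 2 and 3 was left out, at adjusted p between 0.0571 and 0.122 (edgeR). EPHB4, the ephrin-B2 receptor of veins, measured 24.3 to 29.1 CPM in OMO and 26.0 to 28.3 CPM in OMO+DOX, a log2FC of 0.02 (standard error 0.06, edgeR adjusted p = 0.739).

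Among the ephrin-B ligands, EFNB1 fell while EFNB2 rose. EFNB1, encoded on the X chromosome (68828997 to 68842147, plus strand), measured 97.5, 85.2, 92.3 and 92.8 CPM in OMO and 38.1, 36.6, 40.0 and 40.1 CPM in OMO+DOX. Its log2FC was -1.25 (standard error 0.05, 2.38-fold lower, edgeR adjusted p = 1.4e-09). EFNB2, the arterial ephrin and a ligand of EPHB4, lies on chromosome 13 (106489731 to 106535662, minus strand) and measured 5.73, 5.78, 4.86 and 5.61 CPM in OMO and 19.9, 21.5, 21.6 and 22.1 CPM in OMO+DOX, a log2FC of 1.95 (standard error 0.07, 3.87-fold higher, edgeR adjusted p = 2.7e-10). The groups did not overlap in either gene. A gene on the other strand, AL138689.2, shares 26.2% of the exonic bases of EFNB2 and had at most 0.371 CPM in any library. EFNB3 rose slightly, from 23.0 ± 0.720 to 27.4 ± 1.93 CPM, a log2FC of 0.25 (standard error 0.06, edgeR adjusted p = 0.00192). By CPM per kb of exon, the share of EFNB1 in the 3 ephrin-B ligands was 75.8% to 77.9% in OMO libraries and 47.7% to 48.1% in OMO+DOX libraries, and that of EFNB2 was 2.67% to 3.39% and 16.5% to 18.7%.

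Of the ephrin-A ligands, the partners of the EphA receptors, EFNA5 and EFNA1 rose and EFNA2 fell. EFNA5, a repellent cue of retinal and cortical axons, lies on chromosome 5 (107376889 to 107670895, minus strand) and was the only ephrin-A ligand with an absolute log2FC above 1. It measured 0.735, 0.619, 0.427 and 0.426 CPM in OMO and 1.83, 1.77, 1.25 and 1.65 CPM in OMO+DOX, a log2FC of 1.54 (standard error 0.20, edgeR adjusted p = 2.16e-05), from at most 36 counts per OMO library. EFNA5 passed the filter through the OMO+DOX libraries alone, so its groups had to separate and its adjusted p is only descriptive. EFNA2, a cue in visual map formation, fell from 14.7 ± 1.13 to 8.61 ± 0.485 CPM (mean ± SD over 4 libraries each), with a log2FC of -0.77 (standard error 0.07, edgeR adjusted p = 1.31e-06). EFNA4, EFNA3 and EFNA1 lie near each other on the plus strand of chromosome 1, with 9.3 kb between the first pair and 39.9 kb between the next. EFNA1 rose by 0.30 on the log2 scale (standard error 0.09, edgeR adjusted p = 0.00863), with overlapping groups. Its neighbours EFNA3, with a log2FC of 0.05 (standard error 0.11), and EFNA4, with 0.25 (standard error 0.11), did not pass the test, at edgeR adjusted p of 0.66 and 0.0639. EFNA4 passed without OMO replicate 3 or OMO+DOX replicate 2, at edgeR adjusted p of 0.0151 and 0.0143. A read-through gene, AL691442.1, shares 44.7% of the exonic bases of EFNA3 and overlaps EFNA4 too, and had at most 0.0571 CPM.

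**Figure D2:**
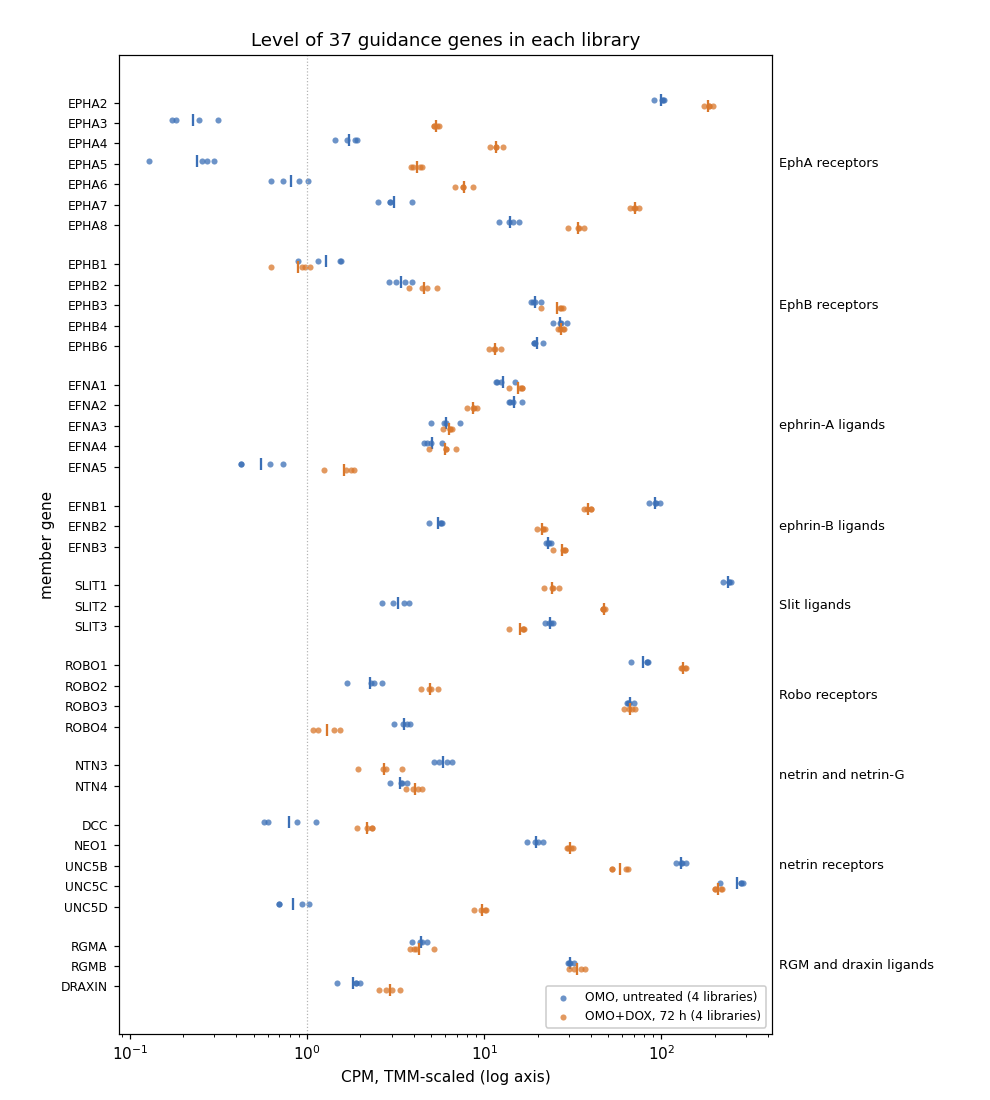
Levels in CPM (x axis, log scale) of the 37 members tested (y axis, by family) in the 4 OMO libraries (blue) and the 4 OMO+DOX libraries (orange), with a dot per library, a tick at each group mean and a dotted line at 1 CPM. EPHA3 and EPHA5 cross from below to above 1 CPM, and SLIT1 and SLIT2 change places.

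The Slit ligands changed in opposite directions, and the leading Slit was a different gene in each group. SLIT1, the Slit most tied to the nervous system, lies on the minus strand of chromosome 10 (96998038 to 97185920). It measured 241, 240, 224 and 246 CPM in OMO and 24.6, 24.2, 21.7 and 26.5 CPM in OMO+DOX, a log2FC of -3.29 (standard error 0.07, 9.80-fold lower, edgeR adjusted p = 2.71e-12). SLIT2, a midline and vascular repellent, lies on the plus strand of chromosome 4 (20253260 to 20620561). It measured 3.55, 3.08, 2.64 and 3.79 CPM in OMO and 47.1, 46.7, 47.8 and 47.0 CPM in OMO+DOX, a log2FC of 3.86 (standard error 0.09, 14.5-fold higher, edgeR adjusted p = 5.88e-12). In both genes the groups were far apart relative to the spread within them. SLIT3 fell from 23.4 ± 0.984 to 15.9 ± 1.46 CPM (mean ± SD over 4 libraries each), with a log2FC of -0.55 (standard error 0.07, edgeR adjusted p = 1.52e-05). OMO+DOX replicate 2, at 13.7 CPM, was below the other OMO+DOX libraries at 16.6 to 16.8 CPM, and without it the log2FC was -0.49. A read-through gene, ARHGAP19-SLIT1, shares 2.4% of the exonic bases of SLIT1, and it measured 1.23 to 2.48 CPM in OMO and 0.125 to 0.471 CPM in OMO+DOX.

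Per kb of exon, SLIT1 made up 92.8% to 93.2% of the Slit level in OMO libraries and 28.1% to 32.7% in OMO+DOX libraries. SLIT2 made up 1.03% to 1.34% and 54.3% to 58.2%. The summed Slit level per kb was 28.1 ± 1.19 CPM in OMO and 8.64 ± 0.228 CPM in OMO+DOX (SD, n = 4 each), so the family total was lower although SLIT2 was higher. These sums describe members whose changes were already given and were not tested.

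**Figure D3:**
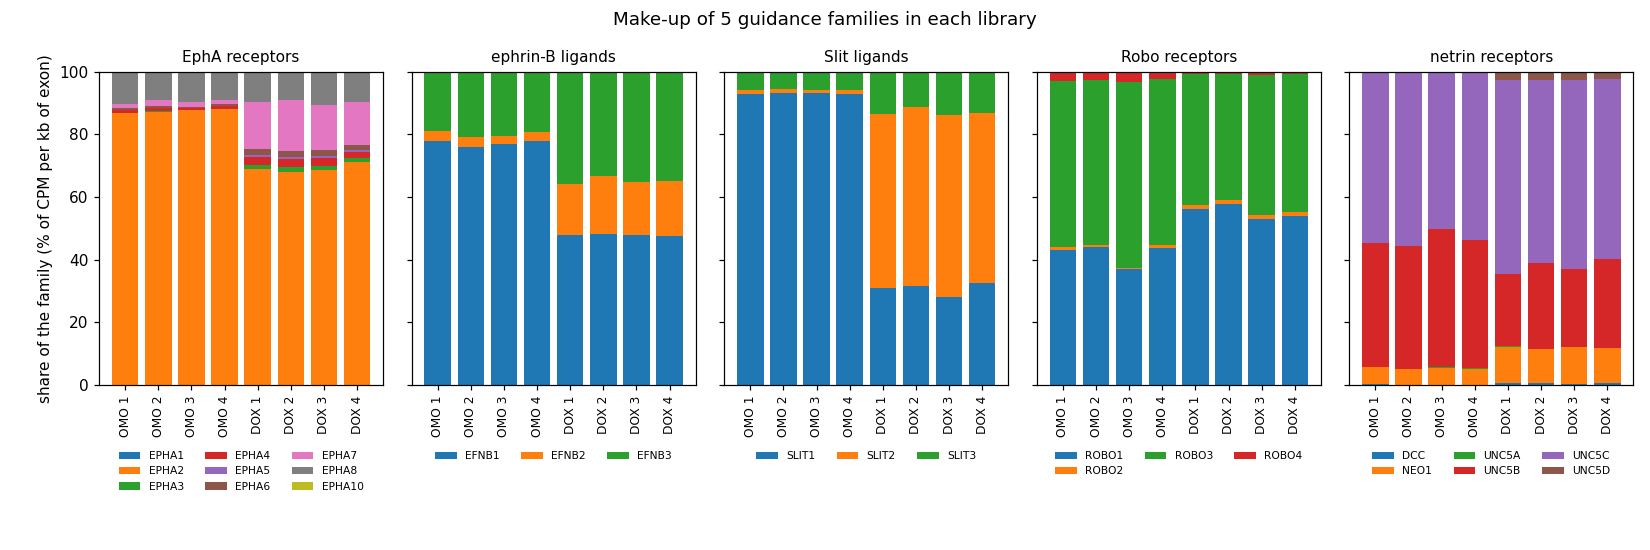
Share of each gene (y axis, % of the family's summed CPM per kb of exon) in 5 families, with a bar for each of the 4 OMO and 4 OMO+DOX (DOX) libraries. SLIT1 fills over 92.8% of every OMO bar in the Slit panel and SLIT2 over 54.2% of every OMO+DOX bar, and EPHA7 rises to 13.6% to 16.3% of the EphA bars.

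Robo receptors split by member. ROBO1, the widely expressed Slit receptor (chromosome 3, 78597240 to 79767815, minus strand), rose from 79.1 ± 7.75 to 133 ± 3.81 CPM (mean ± SD over 4 libraries each), with a log2FC of 0.75 (standard error 0.07, edgeR adjusted p = 9.24e-07). OMO replicate 3, at 67.5 CPM, was below the other OMO libraries at 82.6 to 83.5 CPM, and without it the log2FC was 0.68. ROBO2, which lies 947.3 kb from ROBO1 on the other strand (75906695 to 77649964, plus strand), measured 2.29, 2.38, 1.69 and 2.67 CPM in OMO and 4.42, 5.48, 4.91 and 5.02 CPM in OMO+DOX. Its log2FC was 1.14 (standard error 0.13, edgeR adjusted p = 9.18e-06), with no overlap between the groups. ROBO4, a Robo known from endothelium (chromosome 11, 124883691 to 124898500, minus strand), measured 3.65, 3.46, 3.82 and 3.09 CPM in OMO and 1.42, 1.08, 1.54 and 1.16 CPM in OMO+DOX. It fell by 1.42 on the log2 scale (standard error 0.13, edgeR adjusted p = 1.22e-06), and all OMO+DOX libraries were below all OMO libraries. The endothelial markers PECAM1 and TIE1 were at or below 0.0881 CPM in every library, while CDH5 had no count in OMO and 1.52 to 2.07 CPM in OMO+DOX. VWF fell as ROBO4 did, from 3.26 ± 0.332 to 1.24 ± 0.184 CPM (log2FC -1.39, edgeR adjusted p = 1.42e-06), CLDN5 measured 0.449 ± 0.0604 and 0.114 ± 0.0728 CPM and did not pass the filter, and KDR measured 0.348 ± 0.138 and 2.74 ± 0.238 CPM. CDH5 and KDR passed the filter through the OMO+DOX libraries alone, so their groups had to separate. The part of endothelial markers in the change of ROBO4 was not tested. ROBO3, the divergent Robo of commissural axons, ends 2.2 kb from ROBO4 on the other strand, and it measured 64.0 to 70.2 CPM in OMO and 61.1 to 71.3 CPM in OMO+DOX. Its log2FC was 0.01 (standard error 0.06, edgeR adjusted p = 0.862).

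Netrins were low in these cells. NTN3 (chromosome 16, 2471499 to 2474145, plus strand) measured 6.18, 6.56, 5.18 and 5.58 CPM in OMO and 2.70, 1.94, 2.80 and 3.43 CPM in OMO+DOX, a log2FC of -1.11 (standard error 0.15, edgeR adjusted p = 2.8e-05). Its groups did not overlap. NTN4, a laminin-binding netrin, had a log2FC of 0.28 (standard error 0.10, edgeR adjusted p = 0.0241), with overlapping groups, and its call was lost without OMO replicate 1 or OMO+DOX replicates 1 or 3, at edgeR adjusted p between 0.0605 and 0.079, and also without the filter on low counts, at 0.0751. NTN1, the classical netrin of the floor plate, had at most 0.237 CPM in any library, NTN5 at most 0.682 CPM and NTNG2 at most 0.704 CPM, and none passed the filter. NTNG1 missed the filter by a single library, with 0.183 to 0.426 CPM in OMO and 0.828, 1.12, 1.08 and 1.08 CPM in OMO+DOX. When all genes with any count were tested, where the background of calls was 41.3%, its log2FC was 1.85 (standard error 0.26, edgeR adjusted p = 4.25e-07). In that fit 4 of the 7 members under the filter were called, all higher in OMO+DOX, the others being EPHA1 (edgeR adjusted p = 0.0036), NTN1 (0.00563) and NTN5 (log2FC 0.76, 0.037). EPHA1 had 1 to 3 counts and NTN1 at most 5 counts per OMO library, so no fold is given for them. NTNG2, UNC5A and EPHA10 were not called, at edgeR adjusted p of 0.226, 0.789 and 0.997.

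Among netrin receptors, the attractive receptors and UNC5D rose while UNC5B and UNC5C fell. UNC5D, the UNC5 receptor known from migrating cortical neurons, measured 0.939, 1.03, 0.691 and 0.695 CPM in OMO and 10.3, 10.2, 9.58 and 8.74 CPM in OMO+DOX. Its log2FC was 3.52 (standard error 0.13, 11.5-fold, edgeR adjusted p = 3.3e-10). UNC5D passed the filter through the OMO+DOX libraries alone, so its groups had to separate and its adjusted p is only descriptive. DCC (chromosome 18, 52340172 to 53535903, plus strand) measured 1.12, 0.600, 0.569 and 0.874 CPM in OMO and 2.33, 2.34, 1.92 and 2.18 CPM in OMO+DOX, a log2FC of 1.47 (standard error 0.19, edgeR adjusted p = 2.57e-05). NEO1, which also serves as the RGM receptor, rose from 19.6 ± 1.60 to 30.4 ± 1.12 CPM (mean ± SD over 4 libraries each), with a log2FC of 0.63 (standard error 0.06, edgeR adjusted p = 1.99e-06). UNC5A had at most 0.224 CPM and did not pass the filter.

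UNC5B and UNC5C were the most abundant netrin receptors per length in both groups. UNC5B (chromosome 10, 71212570 to 71302864, plus strand), which also acts in vessels and as a dependence receptor, measured 129.5, 129.8, 121.5 and 136.8 CPM in OMO and 52.7, 65.0, 52.5 and 63.0 CPM in OMO+DOX. Its log2FC was -1.15 (standard error 0.08, 2.22-fold lower, edgeR adjusted p = 5.96e-08), and all OMO+DOX libraries were below all OMO libraries. UNC5C, whose loss in mice disturbs the placement of cerebellar granule and Purkinje cells, lies on chromosome 4 (95162504 to 95549206, minus strand) and measured 279.8, 286.5, 214.0 and 280.9 CPM in OMO and 220.7, 216.4, 199.9 and 199.2 CPM in OMO+DOX. OMO replicate 3 fell inside the OMO+DOX range, and the other OMO libraries were above it. The log2FC was -0.34 (standard error 0.09, edgeR adjusted p = 0.00325), and without OMO replicate 3 it was -0.44 (edgeR adjusted p = 6.08e-07). With library size alone as the scaling, the log2FC of UNC5C was -0.22 with an edgeR adjusted p of 0.0503.

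Of the ligands in the RGM group, DRAXIN, a secreted antagonist that binds netrin and DCC, rose from 1.81 ± 0.232 to 2.93 ± 0.331 CPM (mean ± SD over 4 libraries each), with a log2FC of 0.69 (standard error 0.13, edgeR adjusted p = 0.000389). RGMA measured 4.37 ± 0.353 and 4.30 ± 0.600 CPM, and its log2FC was -0.03 (standard error 0.11, edgeR adjusted p = 0.836). RGMB measured 30.6 ± 1.07 and 33.5 ± 3.15 CPM, a log2FC of 0.13 (standard error 0.07, edgeR adjusted p = 0.0908), and passed without OMO+DOX replicate 4, at an edgeR adjusted p of 0.0199. A gene on the other strand, AC008522.1, shares 40.2% of the exonic bases of RGMB, and RGMB counts held divided reads in all 8 libraries. AC008522.1 ranged from 0.950 to 4.06 CPM.

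Per kb of exon, EFNB1 had the highest level of all members in OMO, at 27.7 ± 1.53 CPM (SD, n = 4), followed by SLIT1 at 26.1 ± 1.08, UNC5C at 24.8 ± 3.21 and EPHA2 at 23.9 ± 1.43 CPM per kb. Neighbours in this order differed by less than their summed SD. In OMO+DOX the order was EPHA2 at 44.3 ± 2.15, UNC5C at 19.6 ± 1.04, ROBO1 at 12.2 ± 0.350 and EFNB1 at 11.7 ± 0.506 CPM per kb, and EPHA2 and UNC5C stood clear of the next gene. ROBO3 and EPHA7 followed at 9.48 ± 0.617 and 9.47 ± 0.422 CPM per kb, within their spread of each other. By family, the summed level per kb of EphA receptors was 27.4 ± 1.63 CPM in OMO and 64.1 ± 2.06 CPM in OMO+DOX, with EPHA2 at 86.7% to 88.0% of it in OMO and 68.0% to 71.1% in OMO+DOX. The summed level of EphB receptors was 12.6 ± 0.675 and 12.6 ± 1.001 CPM per kb. Netrin receptors summed to 46.3 ± 4.18 and 32.9 ± 1.54 CPM per kb, ephrin-B ligands to 36.0 ± 1.59 and 24.4 ± 1.13 CPM per kb, and ephrin-A ligands to 27.7 ± 2.61 and 23.6 ± 1.65 CPM per kb. Robo receptors summed to 17.3 ± 0.334 and 22.2 ± 0.408 CPM per kb.

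Genes that work with these ligands and receptors were counted from 3 lists drawn up by known role. Of 58 such genes tested, 26 were higher and 22 lower in OMO+DOX, or 82.8%. The background was 76.6%, with 38.5% higher and 38.1% lower. Of the 58 genes, 4 (6.9%) were differentially expressed, against 7.12%. In the Eph list 15 of 25 genes tested were higher and 4 lower, or 76.0%, close to that background, with a median log2FC of 0.31. The largest rises were those of SIPA1L1, a Rap GTPase-activating protein linked to EphA4 signalling, with a log2FC of 2.60 (standard error 0.07), the ubiquitin ligase CBL, with 1.51 (standard error 0.12), and the ephrin-B scaffold GRIP1, with 1.18 (standard error 0.06). The largest falls were small, with a log2FC of -0.42 for CRK, -0.26 for NCK1 and -0.23 for INPPL1. In the Slit-Robo list 3 of 12 genes were higher and 8 lower, or 91.7%, with a median log2FC of -0.29. ARHGAP39, a GTPase-activating protein that binds Robo, rose by 0.87 on the log2 scale (standard error 0.06), and VASP and USP33 by 0.21 each. GPC1, a heparan sulfate proteoglycan that can bind Slit, had a log2FC of -1.65 (standard error 0.16), the Ena/VASP protein EVL one of -0.66 and SRGAP1, a Robo-bound GTPase-activating protein, one of -0.63.

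In the netrin and RGM list 8 of 21 genes tested were higher and 10 lower, or 85.7%, with a median log2FC of -0.07. DSCAM, a cell adhesion molecule that can act as a netrin receptor, measured 0.118 ± 0.0193 CPM in OMO and 5.05 ± 0.185 CPM in OMO+DOX (SD, n = 4 each), a fitted log2FC of 5.38. It had 5 to 7 counts per OMO library and passed the filter through the OMO+DOX libraries alone, so it had to differ, also as 1 of the 4 differentially expressed genes of the 3 lists. Its paralogue DSCAML1 went the other way, from 38.5 ± 1.67 to 5.07 ± 0.480 CPM, a log2FC of -2.92 (standard error 0.07, edgeR adjusted p = 1.01e-11). The latrophilin ADGRL3, a partner of the UNC5-binding FLRT proteins, rose from 0.879 ± 0.271 to 15.9 ± 1.34 CPM, and ABLIM1 from 0.868 ± 0.232 to 2.01 ± 0.272 CPM. PITPNA, a phosphatidylinositol transfer protein that binds DCC and neogenin, fell from 167 ± 3.60 to 56.9 ± 1.55 CPM, a log2FC of -1.55 (standard error 0.04, edgeR adjusted p = 3.25e-11). MYO10, the myosin that carries DCC in filopodia, fell from 742 ± 71.6 to 298 ± 12.4 CPM, a log2FC of -1.31 (standard error 0.07, edgeR adjusted p = 7.82e-09). With library size alone as the scaling, 32 genes of the 3 lists were higher and 17 lower. Under that scaling 11872 of all 15222 genes tested were called, and 60.3% of those calls were higher, so the whole table leaned the same way.

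**Figure D4:**
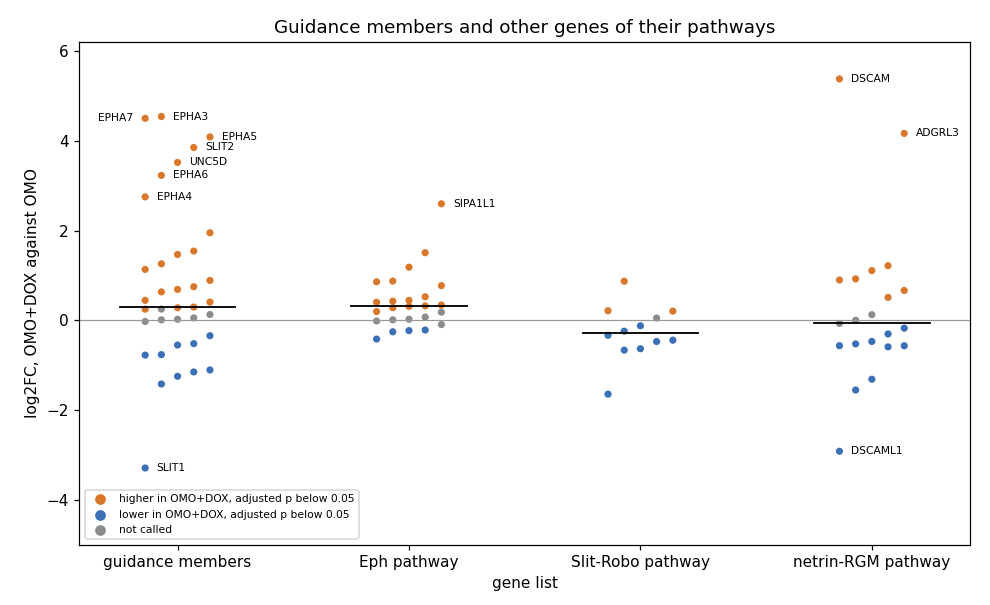
The log2FC of OMO+DOX against OMO (y axis) for the members and the 3 lists of pathway genes (x axis), with a dot per gene tested and a line at each median. Genes past 2 in either direction are named, and DSCAM at 5.38 and DSCAML1 at -2.92 mark the ends of the netrin and RGM list.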

How the data were processed

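PolyA+ RNA of 4 untreated (OMO) and 4 DOX-treated (OMO+DOX) D283-OMO samples was sequenced from stranded libraries. Per the labels and the study's methods, the authors used Trim Galore for trimming and STAR for alignment (GENCODE 32, GRCh38) and deposited RSEM expected counts per gene, not normalized. RSEM divides reads that match several genes, and whether counting used strand is not given in the sources used here, so overlapping genes may share reads. The methods describe independent biological replicates. Expected counts were rounded. Genes exceeding 1 CPM in 4 or more of 8 libraries were tested with edgeR 4.0.16 in R 4.3.3 (TMM, quasi-likelihood test, two-sided, Benjamini-Hochberg adjustment over 15222 genes). The standard error is the absolute log2FC over the square root of F. Symbols, positions and exon lengths came from GENCODE 29, which held 58561 of the 60668 identifiers. Exon length is the union of exons over all annotated transcripts of a gene, not the length of the transcripts expressed. Levels, orders and shares per kb therefore depend on the annotation, and their SD covers the spread of libraries only.

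Every member is named; values per library are given for members with adjusted p below 0.05 and absolute log2FC above 1 and for the 3 of highest mean CPM, and the 3 largest rises and falls are named per pathway list. Members and lists were chosen with earlier results of these data known. Alternatives were other scalings and filters, DESeq2 1.42.0, edgeR's likelihood ratio test, a replicate block and each library left out in turn. The models were tested on simulated data. The summed level of the glial markers is not reported here.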

Additional observations from a re-analysis of the deposited data

Results flagged for a closer look

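Each group of 4 libraries was searched for a library far from the other 3 by Dixon's gap-to-range ratio (95% critical value), for the 37 members tested. Of 74 groups, 4 were marked, where about 1 in 20, or 3.7, are marked by chance. In OMO, replicate 3 was low for ROBO1, at 67.5 CPM against 82.6 to 83.5 CPM in the others, and for UNC5C, at 214.0 CPM against 279.8 to 286.5 CPM. In OMO+DOX, replicate 2 was low for EPHB3, at 20.9 CPM against 26.8 to 27.7 CPM, and for SLIT3, at 13.7 CPM against 16.6 to 16.8 CPM. OMO+DOX replicate 2 also had the fewest counts of the 8 libraries, 38390696, and the part of depth in its values was not tested.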

How the results depend on the processing

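Among member counts, the 8 differentially expressed members became 4 (3 of them higher) when more than 1 CPM was asked of more than 4 libraries, since EPHA3, EPHA5, EPHA6 and UNC5D then left the genes tested. Asking for an absolute log2FC above 1 at an adjusted p below 0.05 left 17 members, 12 higher and 5 lower. No other planned setting moved a count of members or pathway genes by more than 1.5 times. With 1 library left out, 29 to 32 members were called (20 to 22 higher, 9 or 10 lower), 8 stayed differentially expressed, and 46 to 49 pathway genes were called (26 or 27 higher, 20 to 23 lower). In those fits 24 to 27 members had a log2FC above 0, against 26 with all libraries. Scaling by library size alone moved the median log2FC of all genes from 0.01 to 0.14 and the share of calls that were higher from 50.3% to 60.3%. It gave 25 members higher and 8 lower, with EPHB4, EFNA4, ROBO3 and RGMB now called and EPHB1 and UNC5C no longer called. Over all genes, 1084 were differentially expressed, against 2097 without a filter and 562 with the stricter filter.

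Sign changes occurred only in members near 0 that did not pass the test with all libraries. EPHB4 was at -0.0051 without a filter on low counts and between -0.0305 and 0.0609 with a library left out, and EFNA3 between -0.0374 and 0.1501. ROBO3 was at -0.0164 without a filter, and between -0.0231 and 0.0499 with a library left out. RGMA was at 0.1007 with library size alone, and between -0.127 and 0.0213 with a library left out. The replicate numbers are shared by the groups, but deviations of same-numbered libraries correlated at 0.22, 0.201, 0.341 and -0.269, so that the pairing rests on a number alone. With the replicate block, 32 members were called, 22 higher and 10 lower, and 8 were differentially expressed; EFNA4 was then called (edgeR adjusted p = 0.0469). The filter left out 7 members, of which 4 were called without it. EPHA10 had at most 3 counts in any library, so that no difference was detectable there at this depth.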
